A study of Mus musculus with 6 samples.

Results

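The genes of the core Polycomb complexes Ezh1, Ezh2, Eed, Suz12, Bmi1, Rnf2, Cbx2, Cbx7 and Cbx8 were examined in a chromatin state map of mouse hematopoietic stem cells (HSCs), the bone marrow cells that renew themselves and give rise to all blood lineages. The members were chosen by gene symbol, and every segment of the map that overlapped a gene record extended by 20 kb on each side was taken. This gave 326 of the 850831 segments of the map, over 9 of 21779 protein-coding genes on 6 chromosomes. The windows of the 9 genes covered 602.1 kb, and 23 segments fell in the windows of both Cbx2 and Cbx8, which are neighbours.

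The series profiled the histone variant H3.3 by ChIP-seq in HIRA knockout and wild-type HSCs of adult C57BL/6 mice. HIRA is the chaperone that places H3.3 into chromatin outside DNA replication. The 6 libraries were 2 H3.3 ChIP libraries and 1 input from HIRA knockout cells, and 2 H3.3 ChIP libraries and 1 input from wild-type cells. The labels give the same protocol for both genotypes, in which deletion in the blood system was induced with 2 doses of 20 ug poly(I:C), a double-stranded RNA mimic that also induces interferon, and HSCs were sorted on day 7 counted from the first injection. The driver of the deletion, the age of the mice in weeks and the number of mice per library are nowhere stated in those labels.

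The values below come from 1 map, labelled by its name as wild-type HSC H3.3, which assigns 1 of 18 states to each bin of 200 bp of the mm10 genome. It holds neither read counts nor replicates, so its depth is unknown, no spread between animals can be given and no test was run. It also has no values for knockout cells. HIRA knockout and wild-type cells are therefore not compared. The states are numbered without names and are described by where they lay. States 3 to 6 held 1.13% of the genome but 50.3% of the 17492 transcription starts of protein-coding genes that had a tabulated start. State 9 held 0.182% of the genome and 7.77% of those starts, and the segment of state 9 nearest the gene bordered state 10 or 11 in the members that had one. State 8 held 21.7% of the 3′ ends of genes and 5.23% of the genome, and was 0.122 times as frequent at starts as in the genome. State 17 held 22.3% of 3′ ends and 15.2% of the genome, and state 18 held 28.6% of 3′ ends. State 18 was the most widespread, at 55.0% of the genome. Among marker genes, 11 of 12 HSC genes had an end of their record in states 3 to 6, Erg being the exception, and none of 5 genes each for B cells, T cells, erythroid cells, myeloid cells or stroma and endothelium did. Of the 5 stromal and endothelial genes, 4 had an end in states 9 to 11, as did 1 of the 12 HSC genes. The B cell, T cell and myeloid lists each had 1 such gene, and the erythroid list had none. Over all coding genes, 47.6% had an end in states 3 to 6 and 23.9% in states 9 to 11.

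Polycomb proteins work in multi-subunit complexes that keep genes silent. Polycomb repressive complex 2 (PRC2) methylates histone H3 on lysine 27, and Polycomb repressive complex 1 (PRC1) binds that mark through its CBX subunits and ubiquitinates histone H2A. In HSCs these complexes are known for keeping lineage genes and the cell cycle inhibitors of the Cdkn2a locus in check, and loss of several subunits impairs self-renewal.

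The 8 genes with a tabulated start fell into 3 arrangements at their promoters. Eed, Rnf2 and Cbx7 started in an unbroken run of states 3 to 6 and had no state 9 anywhere in their windows. Ezh2 and Suz12 also started in states 3 to 6, with a block of state 9 directly downstream. Ezh1, Bmi1 and Cbx8 started in state 9, with states 3 to 6 within 0.42 kb of the start. Cbx2, for which no start was tabulated and which is described by the ends of its record, had its lower-coordinate end in state 9 beside states 3 to 6. Thus 5 of 8 members started in states 3 to 6, against 50.3% of coding genes, and 3 of 8 started in state 9, against 7.77%.

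**Figure D1:**
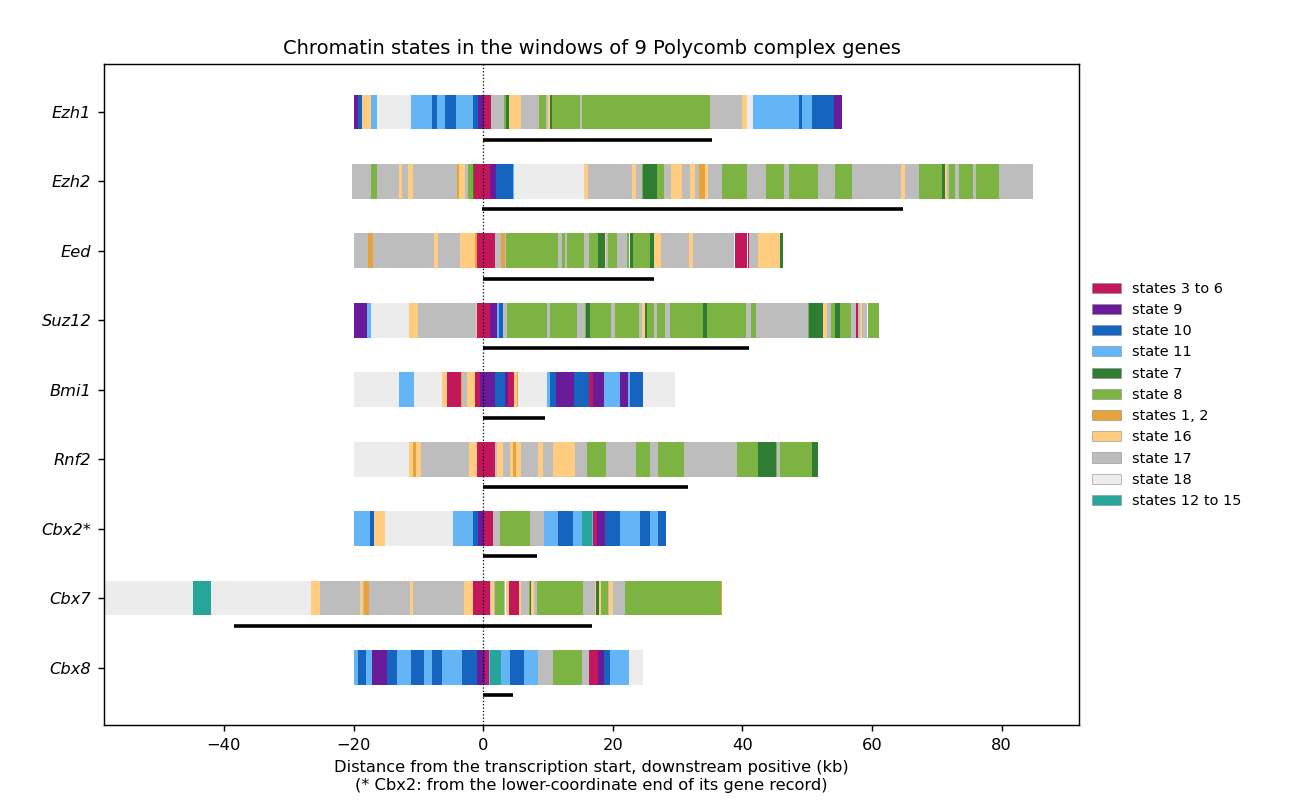
Chromatin states across the windows of the 9 Polycomb genes in the single wild-type map, grouped into state classes by colour, with black bars for the gene records and distance in kb from the transcription start (for Cbx2, from the lower-coordinate end of its record) on the x axis and transcription running to the right. Eed, Rnf2 and Cbx7 have no state 9. The windows of Cbx2 and Cbx8 reach into the same run of states 9 to 11, of 36.20 kb, and the longest such run in the Bmi1 window is 7.60 kb.

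Ezh1 and Ezh2 encode the alternative methyltransferases of PRC2, of which EZH2 is typical of dividing cells and EZH1 of resting cells. Ezh1 (chr11:101191115-101226463, minus strand) started in a segment of state 9 of 0.80 kb, which ran from -0.74 to 0.06 kb around the start. States 4, 3, 5 and 6 followed without a gap up to 1.26 kb downstream. The start lay 0.06 kb from the border with state 4, less than the 200 bp of 1 bin, so a border moved by 1 bin would change its class. Ezh2 (chr6:47530274-47595270, minus strand) had the opposite order. Its start lay in state 5, in a run of states 3 to 6 that spanned -1.37 to 1.03 kb, and state 9 covered 1.03 to 2.03 kb downstream, followed by state 10 up to 4.63 kb and a segment of state 18 of 10.80 kb inside the gene. The 250 bases upstream of both starts are shown because the same pair of state classes meets at both promoters in reversed order; they are from RefSeq, GRCm38.p6, written 5′ to 3′ along the gene with each CpG in capitals. The Ezh1 run lies at chr11:101226464-101226713 on the minus strand and the Ezh2 run at chr6:47595031-47595280 on the minus strand.
Ezh1: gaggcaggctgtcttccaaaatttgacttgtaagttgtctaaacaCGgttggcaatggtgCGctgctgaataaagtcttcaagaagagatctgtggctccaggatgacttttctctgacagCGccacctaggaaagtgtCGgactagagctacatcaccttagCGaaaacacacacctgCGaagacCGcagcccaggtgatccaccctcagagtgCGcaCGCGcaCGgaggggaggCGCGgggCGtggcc
Ezh2: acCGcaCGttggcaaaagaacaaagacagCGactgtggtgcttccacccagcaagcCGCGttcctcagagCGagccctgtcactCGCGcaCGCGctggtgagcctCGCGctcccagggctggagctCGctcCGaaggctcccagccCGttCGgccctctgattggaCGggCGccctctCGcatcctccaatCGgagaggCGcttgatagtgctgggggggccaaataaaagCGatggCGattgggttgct
The printed run held 14 CpG for Ezh1 and 23 for Ezh2.

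The surroundings of the EZH genes differed as well. States 9 to 11 took 36.0% of the Ezh1 window and 3.62% of the Ezh2 window. For Ezh1 they lay almost wholly outside the gene, at 67.0% of the upstream flank and 68.4% of the downstream flank, against 0.178% of the gene record. The Ezh1 record itself was 74.1% states 7 and 8, with a single state 8 segment of 19.80 kb, the longest of state 8 in any member. In the Ezh2 record states 7 and 8 took 26.2%, states 16 and 17 took 47.9% and state 18 took 16.6%. So the EZH genes differed both at the start and along the body: Ezh1 joined a state 9 start to a body rich in state 8, and Ezh2 joined a start in state 5 to a body of mixed states.

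Eed, whose protein binds the methylated lysine and stimulates the enzyme, and Suz12, the scaffold of PRC2, both started in states 3 to 6. Eed (chr7:89954654-89980976, minus strand) had its start in state 5 within a run of 2.80 kb of states 3 to 6. No base of its window was in states 9 to 11 or in state 18, and the nearest state 9 lay at -321 kb. States 7 and 8 covered 72.0% of the record, with a longest state 8 segment of 8.0 kb. Suz12 (chr11:79993106-80034123, plus strand) started in state 6 within a run of 2.00 kb, and state 9 began 1.09 kb downstream and ended at 2.09 kb. State 8 followed from 3.69 kb, and states 7 and 8 covered 79.0% of the record, the highest share among the members. Suz12 thus carried a state 9 block between its promoter and a body rich in states 7 and 8. A second state 9 segment, of 2.4 kb, lay at the far end of the Suz12 upstream flank. The Eed promoter is shown as the case with neither state 9 nor states 10 and 11 nearby; the run of 250 bases is from the same source, at chr7:89980977-89981226 on the minus strand, with CpG in capitals.
Eed: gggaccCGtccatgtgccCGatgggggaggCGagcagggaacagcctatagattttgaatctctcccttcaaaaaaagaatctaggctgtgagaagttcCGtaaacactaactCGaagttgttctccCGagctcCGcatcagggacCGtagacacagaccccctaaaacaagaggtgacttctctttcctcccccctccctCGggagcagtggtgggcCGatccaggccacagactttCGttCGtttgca
It held 12 CpG, the fewest of the 8 promoters with a sequence.

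Bmi1 and Rnf2 encode the paired RING proteins of PRC1: RNF2 (RING1B) is the ubiquitin ligase and BMI1 (PCGF4) is its partner, known for its need in HSC self-renewal. Their genes differed at the start. Bmi1 (chr2:18677018-18686629, plus strand) started in a state 9 segment of 2.20 kb, from -0.42 to 1.78 kb, which was preceded by states 5, 4 and 6 up to its border. State 10 followed up to 3.38 kb, a further state 9 segment up to 3.78 kb, and states 3 and 5 up to 4.78 kb, all inside the gene. A segment of state 18 then covered 5.38 to 9.78 kb, past the 3′ end. State 9 occurred in 5 segments of the Bmi1 window and made up 16.5% of it, and 6 of 21779 coding genes had a higher share. That rank is of the whole window. State 9 took 22.7% of the Bmi1 record, 2.08% of the upstream flank and 28.0% of the downstream flank. The downstream flank also holds the state 9 starts of Gm46725 and Spag6. Bmi1 had no state 7 or 8 in its window, and the nearest state 8 lay 65.18 kb downstream of the start. The Bmi1 run of 250 bases upstream of the start is shown because it lies within state 9, just downstream of the border with states 3 to 6 (chr2:18676768-18677017, plus strand, same source and capitals).
Bmi1: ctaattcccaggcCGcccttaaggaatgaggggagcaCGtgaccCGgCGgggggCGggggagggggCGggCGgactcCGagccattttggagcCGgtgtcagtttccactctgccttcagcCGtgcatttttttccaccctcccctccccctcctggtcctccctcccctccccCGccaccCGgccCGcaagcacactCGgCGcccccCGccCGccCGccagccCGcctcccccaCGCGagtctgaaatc
It held 21 CpG, close to the 23 of Ezh2 and above the 14 of Ezh1.

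Rnf2 (chr1:151469398-151500991, minus strand) started in state 6 in a run of states 3 to 6 of 2.80 kb, as long as that of Eed. Its window held no state 9 to 11, and no state 9 was found within 500 kb on either side of the start. States 16 and 17 took 63.9% of the record and states 7 and 8 took 29.1%, with a longest state 8 segment of 4.00 kb, and the nearest state 8 lay 15.99 kb downstream of the start. The genes of the RING pair thus differed in the state at the start, in state 9 and in state 8.

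Cbx2, Cbx7 and Cbx8 encode chromodomain subunits of PRC1 that bind methylated H3, of which CBX7 is the subunit linked to self-renewal in HSCs and the others to differentiation. Cbx2 (chr11:119023019-119031275) and Cbx8 (chr11:119036303-119040913, minus strand) are neighbours, with 5.03 kb between their records. Their windows overlapped by 35.0 kb, so their values are not independent. Over their joint span of 57.9 kb, states 9 to 11 covered 59.2% and states 3 to 6 covered 3.45%. The space between the records was 77.6% states 9 to 11. Cbx8 started in a state 9 segment of 1.20 kb, from -0.89 to 0.31 kb, followed by state 4 up to 0.91 kb and by state 13 from 1.11 to 2.71 kb. States 9 to 11 filled 100% of the 20 kb upstream of Cbx8, in a run of 36.20 kb that was the longest of any member. The Cbx8 record held no state 7 or 8. Cbx2 had state 9 over 1.0 kb at its lower-coordinate end, from -0.82 to 0.18 kb, then states 3 and 5 up to 1.58 kb, and then state 8 over 4.60 kb. States 7 and 8 took 55.7% of the Cbx2 record and 0% of the Cbx8 record, so the neighbours differed along the gene body. States 9 to 11 took 52.3% of the Cbx8 record and 2.20% of the Cbx2 record, most of which lay between the runs of these states.

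Cbx7 (chr15:79915804-79971143, minus strand) lay apart from them. Its record reached 38.5 kb upstream of the tabulated start, and the start lay in state 6, in a run of states 3 to 6 of 2.60 kb from -1.55 to 1.04 kb. A further run of states 5 and 3 lay from 4.05 to 5.45 kb inside the gene. No state 9 to 11 occurred in the window, and the nearest state 9 lay at -79.95 kb. State 18 filled 86.0% of the upstream flank, and states 7 and 8 filled 81.0% of the downstream flank, in which Apobec3 overlaps the end of the record. The upstream end of the Cbx7 record lay in state 18, so counted by record ends rather than by the start Cbx7 was not among the genes in states 3 to 6.

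**Figure D2:**
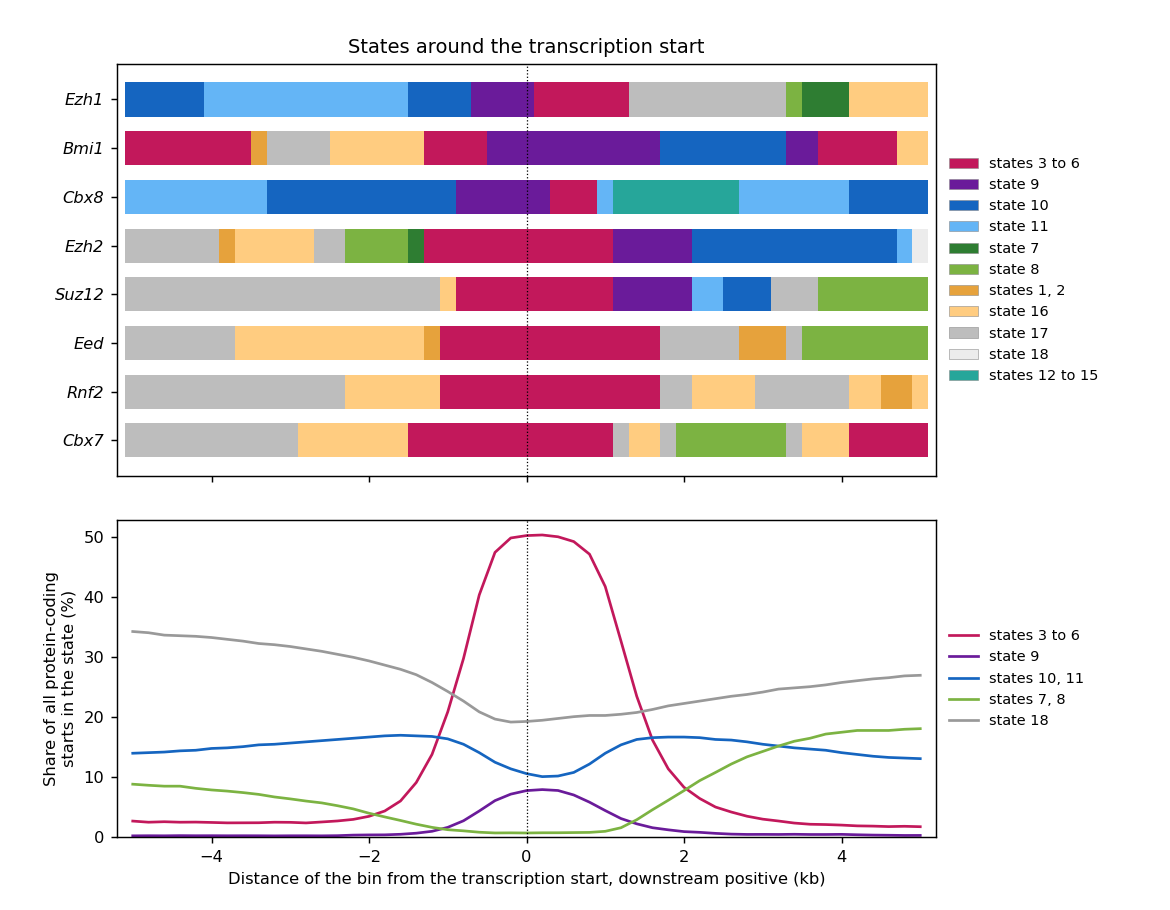
States from -5 to 5 kb around the transcription start of the 8 Polycomb genes with a tabulated start (upper panel, 1 row per gene, bins of 200 bp), and the percent of 17492 coding starts in each state class at each distance (lower panel). State 9 lies at the start in Ezh1, Bmi1 and Cbx8 and downstream of it in Ezh2 and Suz12.

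State 9 within 2 kb of the start was present in 5 of the 8 members, against 1 of 27 other Polycomb genes with a start and 9.77% of coding genes. The distance of 2 kb was chosen after the positions had been seen: within 1 kb the count was 3 members, against 9.28% of coding genes, since state 9 begins 1.03 kb from the Ezh2 start and 1.09 kb from the Suz12 start, and within 5 kb it was 5 members, against 10.6%. States 3 to 6 lay within 2 kb of the start in 8 of 8 members and in 26 of 27 other Polycomb genes, against 53.3% of coding genes. The direct contact of state 9 with states 3 to 6 within 2 kb of the start was found in Ezh1, Ezh2, Suz12, Bmi1 and Cbx8, which is 5 of 8 members, in 0 of 27 other Polycomb genes and in 411 coding genes, or 2.35%. Genes without a tabulated start, such as Cbx2 and Pcgf1, were not counted here. Like Cbx2, Pcgf1 had its lower-coordinate end in state 9, and states 3 to 6 took 36.3% of its record. The pairing was uncommon among coding genes that had states 3 to 6 within 2 kb, of which 4.46% also had state 9 there. Of those that started in states 3 to 6, as Ezh2 and Suz12 do, the share was 2.17%. Seen from state 9 the pairing was more frequent. State 9 lay within 2 kb of the start in 1709 coding genes, and 416 of them also had states 3 to 6 there. Of the 1359 genes that started in state 9, as Ezh1, Bmi1 and Cbx8 do, 15.7% had states 3 to 6 within 2 kb. These counts describe 1 map and 8 chosen genes, and no test stands behind a difference between the sets.

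**Figure D3:**
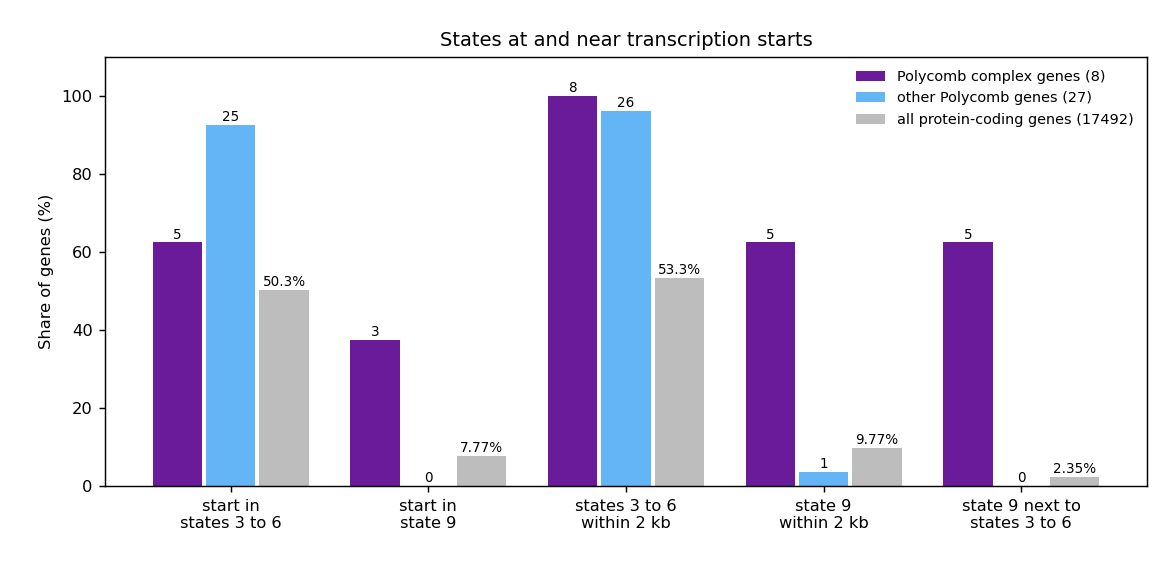
Percent of genes that meet each arrangement at the transcription start, for the 8 Polycomb genes with a start, 27 other Polycomb genes and 17492 coding genes, with the percent of genes on the axis. State 9 in contact with states 3 to 6 was found in 5 of 8 members, 0 of 27 other Polycomb genes and 2.35% of coding genes. Cbx2 and Pcgf1, which have no tabulated start, are not included.

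When both ends of each gene record were used, which brings in Cbx2, the split was similar. An end in states 3 to 6 was found in Ezh2, Eed, Suz12 and Rnf2, which is 4 of 9 members, in 27 of 31 other Polycomb genes and in 47.6% of coding genes. An end in states 9 to 11 was found in Ezh1, Bmi1, Cbx2 and Cbx8, which is 4 of 9 members, in 3 of 31 other Polycomb genes (Pcgf1, Scml2 and Sfmbt2) and in 23.9% of coding genes. Each of these 4 members had an end in state 9. Of coding starts, 7.77% lay in state 9 and 10.1% in state 11, which also held 10.3% of 3′ ends. The count for states 3 to 6 depends on the rule. States 3 to 6 lay within 1 kb of an end in 8 of 9 members, 29 of 31 other Polycomb genes and 51.8% of coding genes, and within 1 kb of the start in 8 of 8 members, 26 of 27 other Polycomb genes and 52.5%. Some part of the record lay in states 3 to 6 in 9 of 9 members, 30 of 31 other Polycomb genes and 56.5% of coding genes. The members' windows held 14 segments of state 9, or 4.29% of their segments, against 0.399% of the segments of the map, which also covers regions without genes. Some of these segments held starts of neighbouring genes, such as Gm46725 and Spag6. By bases, state 9 took 3.23% of the members' windows, 0.568% of those of the other Polycomb genes and 0.327% of those of all coding genes. State 9 occurred in the windows of 6 of 9 members, 8 of 31 other Polycomb genes and 19.6% of coding genes.

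Along the gene bodies, states 7 and 8 ordered the members differently from the starts. State 8 was present in the records of 7 of 9 members, Bmi1 and Cbx8 being the exceptions, in those of 31 of 31 other Polycomb genes and in 49.3% of coding genes. The share of the record in states 7 and 8 was highest in Suz12 at 79.0%, Ezh1 at 74.1% and Eed at 72.0%, followed by Cbx2 at 55.7%, Rnf2 at 29.1%, Ezh2 at 26.2% and Cbx7 at 16.3%, with 0% in Bmi1 and Cbx8. The median was 29.1% over the members, 0% over all coding genes and 35.7% over coding genes that started in states 3 to 6. Of genes that started in state 9, 21.3% had any state 8 in the record, and 43.7% did where states 3 to 6 also lay within 2 kb, the arrangement of Ezh1, Bmi1 and Cbx8. Bmi1 and Cbx8 had no state 8, as did most genes with a start in state 9, whose median record was 23.8% states 9 to 11 and 46.5% state 18.

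Taking whole windows, the members had 4.05% of bases in states 3 to 6, 15.1% in states 9 to 11, 27.7% in states 7 and 8 and 15.2% in state 18. The windows of the 31 other Polycomb genes had 4.79%, 3.99%, 22.1% and 22.1% in the same 4 classes, and those of all coding genes had 2.06%, 12.1%, 10.5% and 41.6%. Members and other Polycomb genes both had more of states 3 to 6 and of states 7 and 8 than coding genes at large, and the members had more of states 9 to 11 and less of state 18 than the other Polycomb genes. Against all coding genes, states 9 to 11 went in different directions. State 9 took 3.23% of the members' windows against 0.327%, state 10 took 5.05% against 0.414%, and state 11 took 6.79% against 11.4%. The value for states 9 to 11 depends on the flanks: within the gene records alone it was 4.42% for the members, 0.990% for the other Polycomb genes and 11.1% for all coding genes. These states were unevenly spread over the members: they took 69.7% of the Cbx8 window, 51.1% of the Cbx2 window, 41.9% of the Bmi1 window and 36.0% of the Ezh1 window, but 5.80% for Suz12, 3.62% for Ezh2 and 0% for Eed, Rnf2 and Cbx7. The median member window had 5.80%, the median other Polycomb window 0% and the median coding gene window 3.71%. For state 9 alone, 54 coding genes had a higher share than Cbx8 at 9.86%, 542 than Cbx2 at 4.56%, 818 than Suz12 at 3.82%, 886 than Ezh1 at 3.65% and 3328 than Ezh2 at 0.952%. State 13 occurred in the windows of 2 of 9 members, 5 of 31 other Polycomb genes and 10.3% of coding genes, and for Cbx2 and Cbx8 it was the same segment. State 2 occurred in 4 of 9 members (Ezh2, Eed, Bmi1 and Cbx7), 18 of 31 other Polycomb genes and 47.2% of coding genes, a share near the background.

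**Figure D4:**
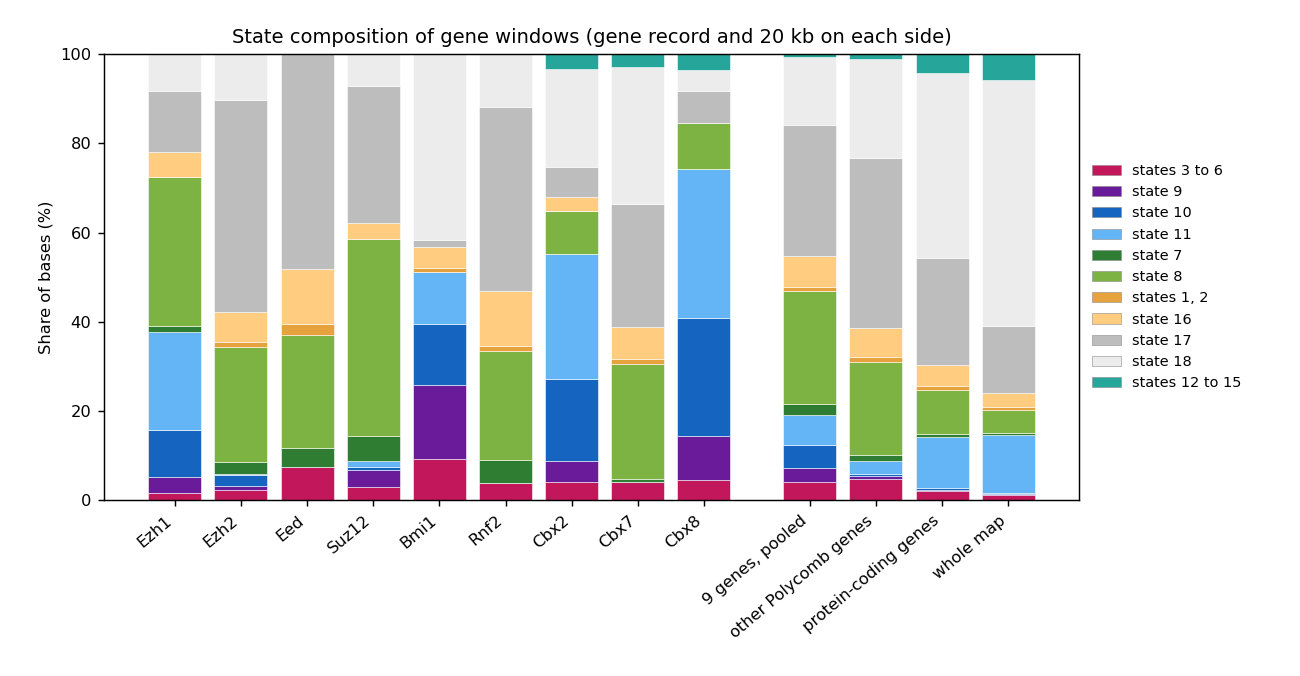
Percent of window bases by state class for each of the 9 Polycomb genes, the 31 other Polycomb genes, all coding genes and the whole map. States 9 to 11 range from 0% in Eed, Rnf2 and Cbx7 to 69.7% in Cbx8, against 3.99% over the other Polycomb genes and 12.1% over all coding genes.

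The paralogues of the members started in states 3 to 6 where a start was tabulated. Pcgf2 (MEL18), the closest relative of Bmi1, started in state 5 in a run of 3.60 kb of states 3 to 6, and states 7 and 8 took 0% of the Bmi1 record and 26.3% of the Pcgf2 record. Ring1, the relative of Rnf2, started in state 4 in a run of 2.00 kb, and states 7 and 8 took 29.1% of the Rnf2 record and 77.4% of the Ring1 record. The run of states 3 to 6 at the start was 2.60 kb for Cbx7 and 2.80 kb for Cbx6, a further CBX gene, which started in state 5. Among the remaining PRC2 genes, Jarid2, which helps recruit the complex, had the longest run at its start, 5.80 kb of states 3 to 6, with no state 9 within 500 kb. Mtf2, a PCL subunit, started in state 5 in a run of 3.0 kb. The other Polycomb genes with a start outside states 3 to 6 were Aebp2, whose start in state 16 lay 0.14 kb from them, and Sfmbt2, whose start lay in state 10 in a run of 13 kb of states 9 to 11.

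Other genes in the windows started in both kinds of state. Apart from the members, 12 coding genes reached into the windows, and of the 9 with a tabulated start, 6 started in states 3 to 6 and 3 in state 9. The shares of coding starts in these states were 50.3% and 7.77%. Among the members, 5 of 8 started in states 3 to 6 and 3 of 8 in state 9, so these neighbours had a similar split. The neighbours in states 3 to 6 were Cul1 beside Ezh2, Hikeshi beside Eed, Crlf3 beside Suz12, Trmt1l beside Rnf2, Apobec3 beside Cbx7 and Commd3 beside Bmi1. The neighbours in state 9 were Plekhh3 near Ezh1 and Gm46725 and Spag6 downstream of Bmi1. Commd3 ended 0.79 kb upstream of the Bmi1 record on the same strand and started in state 3, so adjacent genes started in different classes. Ccr10 and Cntnap1 on one side of Ezh1 and Ramp2 on the other had a record end in state 9 or 10, within the flanks where states 9 to 11 were dense.

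The windows were also matched by their whole composition, taking for each member the coding gene more than 1 Mb away with the smallest summed absolute difference over the percent of bases in the 18 states. The closest of these matches was Naa20 to Eed, with a summed difference of 6.12 percentage points. The median over coding genes was 98.7 points for Eed, but a match picked as the smallest difference must lie below that median. Rcor1 matched Rnf2 at 9.31 points, Hk1 matched Cbx7 at 10.8, Afg3l2 matched Suz12 at 11.8, Gda matched Ezh2 at 13.4 and Slc16a8 matched Ezh1 at 13.8. The matches of Bmi1, Cbx2 and Cbx8 were looser, with 29.5 points between LOC105244150 and Bmi1, 30.8 between Shox2 and Cbx2, and 36.6 between Ccr10 and Cbx8. Ccr10 is the gene in the Ezh1 window named above. Between members, Ezh2 and Rnf2 were closest at 26.3 points, followed by Eed and Rnf2 at 27.4, and Eed and Bmi1 were farthest apart at 176 points. A smaller difference describes composition only and ignores the order of the states.

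CpG content did not divide the members by the state at their start. In the 300 bases from 250 before to 50 after the start, the ratio of observed to expected CpG was 1.09 for Suz12, 1.00 for Ezh2, 0.99 for Cbx7, 0.88 for Ezh1, 0.83 for Cbx8, 0.76 for Eed and Rnf2, and 0.71 for Bmi1. Their median of 0.86 stood above the median of 0.58 over 17492 coding promoters. The GC content of these windows was 59.3% to 72.7% in 7 members and 54.7% in Eed, against a median of 56.3% over coding promoters. Over all genes, starts in states 3 to 6 and in state 9 had median ratios of 0.79 (quartiles 0.63 and 0.93, 8794 genes) and 0.76 (quartiles 0.61 and 0.89, 1359 genes), against 0.26 for starts in states 10 and 11 and 0.16 in state 18. The members that started in state 9, at 0.71 to 0.88, lay inside the range of those that started in states 3 to 6, at 0.76 to 1.09, except Bmi1. Of the printed runs, that of Eed held the fewest CpG and lies in states 3 to 6. The Eed ratio of 0.76 was within the quartiles of starts in those states.

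**Figure D5:**
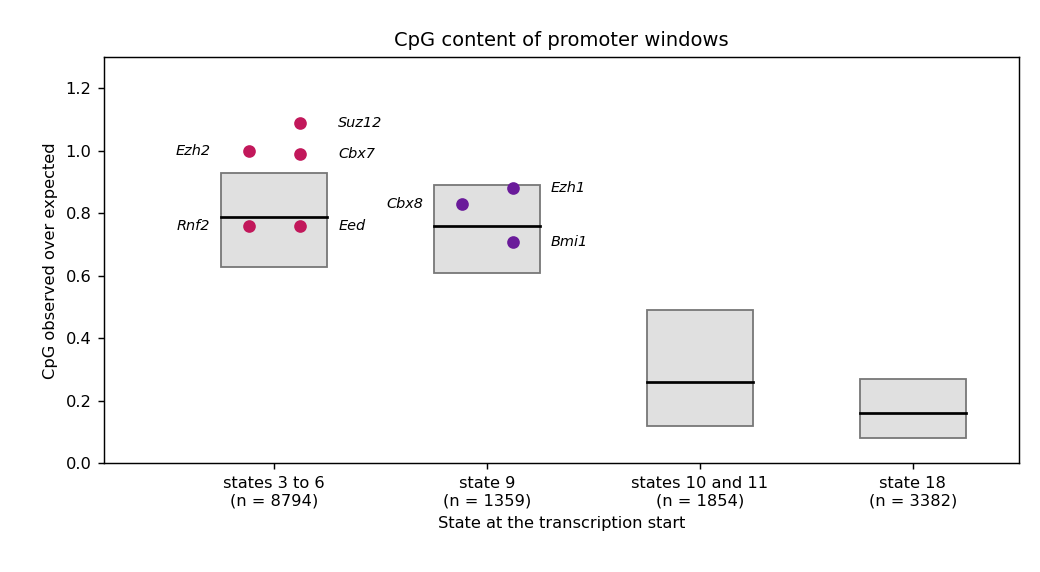
Ratio of observed to expected CpG in the 300 bases around the start for the 8 Polycomb genes with a promoter sequence, as points, over boxes with the medians and quartiles of coding promoters grouped by the state at the start. The members range from 0.71 (Bmi1) to 1.09 (Suz12), above the medians of starts in states 10 and 11 (0.26) and in state 18 (0.16).

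In the same 300 bases, 9 short motifs were searched on both strands, and no matches of different motifs overlapped. The palindromic NRF1 motif occurred in Ezh1, Ezh2 and Cbx7, which is 3 of 8 members, and in 6.60% of coding promoters. The printed Ezh1 and Ezh2 runs thus share this motif, alongside their reversed order of states. GGGCGG, the GC box, occurred in Bmi1, Rnf2, Suz12, Cbx7 and Cbx8, or 5 of 8, and in 46.3% of coding promoters. CCAAT occurred in Ezh2, Eed, Suz12, Cbx7 and Cbx8, or 5 of 8, and in 39.0%. The E2F letters TTTGGCGC occurred in Ezh2 and in 0.657% of promoters, TTTCCCGC in Suz12 and in 1.46%, and the RUNX letters TGTGGT in Ezh2 and in 15.1%. The letters CCGGAAG, AAGATGGCG and AGATAA had no match in these windows, and occurred in 11.9%, 1.94% and 9.96% of coding promoters. A match describes the letters and does not show binding.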

How the data were processed

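The study precipitated H3.3 from micrococcal nuclease-digested chromatin of sorted HSCs, per the labels' protocols. Bowtie2, deepTools, MACS2 and HOMER and the build mm10 are named in the submitters' processing notes, without versions. The deposited values are a state number for each segment, a class label with no unit, and per the file headers the states were ordered by emission, and neither the model's version nor its input tracks are given in the sources used here. The state number depends on those inputs, so a border is known to 1 bin of 200 bp at best.

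Segments were expanded to bins with Python 3.11.15, numpy 2.4.6 and pandas 2.3.3, and the Wilson intervals at 95% came from scipy 1.17.1. Records of 21900 coding genes were from RefSeq GRCm38.p6. Those whose record began within the first 3 Mb of a chromosome or lay outside the map were left out, which left 21779. Starts and promoter sequences came from the RefSeq promoter table for 17492 genes, with no entry for Cbx2. A gene was assigned to the state of the bin that held its start or either record end. The counting steps were tested on a simulated map.

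The members and the lists were chosen with earlier results of these data known. Named genes were the 9 members, 31 other Polycomb genes, coding genes reaching the windows and the 1 most alike gene for each member; some genes that this rule takes are not reported here. With 1 map and no counts, the deposited data gave no test. The alternatives were other flanks, end rules, all 49603 annotated genes, the expanded file, segments of 1 bin left out and each member left out. HIRA knockout and library-level data were not analysed here.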

Additional observations from a re-analysis of the deposited data

How the results depend on the processing

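Of 35 settings for the shares and counts below, 23 left the value within its 95% Wilson interval or within 1.5 times the count, and 12 moved it. The share of states 3 to 6, 4.05% (3.40 to 4.82), was 4.93% with a flank of 10 kb and 5.10% within the records alone. The share of states 9 to 11, 15.1% (13.8 to 16.4), was 12.2% with 10 kb, 4.42% within the records and 23.1% as the mean of the 9 windows, which counts the Cbx2 and Cbx8 overlap in both genes. The share of state 18, 15.2%, was 10.0% with 10 kb, 18.7% with 50 kb and 9.73% within the records. Members with an end in states 3 to 6 numbered 4, but 8 within 1 kb of an end and 9 with any bin of the record. Members with the start in states 3 to 6 numbered 5, but 8 within 1 kb. Members with state 9 near the start numbered 5 within 2 kb and 3 within 1 kb. Leaving out each member in turn, settings added after seeing the data along with the distances of 1 kb and 5 kb, gave 3.58% to 4.43%, 12.1% to 17.9% and 12.4% to 17.1% for the same 3 shares, with 0, 8 and 3 of the 9 values outside the interval of the main share. Over all 49603 annotated genes, an end lay in states 3 to 6 in 25.8% and in states 9 to 11 in 20.5%. The dense and expanded files differed in 0 bins, so the settings that used the expanded file, counted among the 23, could not move a value. The intervals treat bins as independent and cover counting only. No paired analysis was possible because the map has no replicates and no knockout column. Depth is unknown, and whether an arrangement is stable between animals cannot be told from 1 map.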
